A study of Mus musculus with 16 samples.

Results

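The cell cycle set holds 44 genes that drive or carry out cell division, and all 44 were found by symbol among the 16973 genes of the deposited table. The genes were taken in 3 subsets by role, namely 12 genes of the G1/S step, 13 genes of DNA replication and 19 genes of mitosis. The samples are 16 livers, all from male C57BL/6 mice, with 4 livers in each of 4 groups, which were hepatocyte-specific knockouts (HKO) of RPN11 or of METTL3 and the flox/flox livers of each line. RPN11 is the deubiquitylating enzyme of the proteasome, encoded by Psmd14, and METTL3 is the catalytic subunit of the enzyme that methylates adenosines in mRNA. All mice of a line carry the floxed allele, while the labels used here give neither the promoter that drives Cre nor the age or diet of the mice, beyond food at will. By its title the study concerns nonalcoholic fatty liver disease (NAFLD). Each library was treated as 1 mouse, which the labels do not state, so p-values cover the spread between these libraries.

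Counts per liver summed to between 15980959 (METTL3 knockout 4) and 29029592 (METTL3 flox/flox 1). Mettl3 was at 15.8 ± 2.0 CPM (counts scaled to library size, SD, n = 4) in METTL3 flox/flox livers and at 6.43 ± 0.169 CPM in the METTL3 knockouts (edgeR adjusted p = 0.000647). Psmd14 was at 78.2 ± 3.62 CPM in RPN11 flox/flox livers and at 77.9 ± 12.3 CPM in the RPN11 knockouts (edgeR adjusted p = 0.976), so the latter are called livers labelled RPN11 knockout. A count over the whole gene can hold exons outside the deleted part and does not check that label. Labelled RPN11 knockouts 1 and 3 were the most alike of all pairs of libraries, with a chi-square per gene between their counts of 8.15. The next closest pair, RPN11 flox/flox 3 and 4, was at 28.7. Whether labelled knockouts 1 and 3 are independent mice was not tested, and both were kept in every RPN11 group. Hepatocyte markers were the most abundant marker list in every liver, with summed levels of 81346 to 150384 CPM. Knockouts 4 of both lines stood apart in a list of brain genes, which summed to 1084 CPM in METTL3 knockout 4 and to 1442 CPM in RPN11 knockout 4, against 193 to 424 CPM in the other 14 livers. Much of the sum in those other livers came from 1 gene of the list, Slc1a2. Its group means ran from 171 CPM (METTL3 knockouts) to 376 CPM (labelled RPN11 knockouts), scaled as for Mettl3 above.

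Most adult hepatocytes rest outside the cell cycle and re-enter it after loss of liver tissue. D-type cyclins with CDK4 or CDK6, followed by cyclin E with CDK2, release E2F factors from pocket proteins, and the activating E2Fs then switch on replication genes, whereas E2F7 and E2F8 are repressive E2Fs. The MCM proteins form the replicative helicase that CDC6 and CDT1 load onto origins, PCNA is the sliding clamp, and ribonucleotide reductase (RRM1 and RRM2) supplies deoxynucleotides. Mitotic genes come on later, in G2 and M, under FOXM1 and MYB complexes. In resting cells the DREAM complex holds them down through CHR elements in their promoters. In adult rodent liver many hepatocytes are polyploid, and E2F7 and E2F8 are known in mouse for their part in that polyploidy.

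The subsets differed in how often their promoters held 3 motifs of cell cycle genes. RefSeq promoter windows (GRCm38.p6, from 250 bases before to 50 bases after the start) were matched for 35 of the 44 genes, with 38 windows in all, and both strands were searched. The CHR element TTTGAA was present in 9 of 15 mitosis windows (60%), in 8.33% of 12 replication windows and in 18.2% of 11 G1/S windows, against 12.7% of the 15555 windows of all genes of the table. The CCAAT box (CCAAT) was present in 86.7% of mitosis, 75% of replication and 54.5% of G1/S windows, against 37.4% of all windows. An E2F element in 1 of 4 spellings (TTTCCCGC, TTTGGCGC, TTTCGCGC or TTTGCCGC) was present in 6 of 12 replication windows (50%), in 27.3% of G1/S windows and in 6.67% of mitosis windows, against 3.34% of all windows. E2F matches can overlap each other on opposite strands, and a match describes letters in the window and not a bound site. The 150 bases before the start are shown for 1 replication gene and 4 mitosis genes of which values follow, from Mcm6 at chr1:128359706-128359855, Cdk1 at chr10:69352913-69353062, Cdc20 at chr4:118437344-118437493, Top2a at chr11:99024190-99024339 and Mki67 at chr7:135716380-135716529, all on the minus strand. They are written 5′ to 3′ with matches in capitals.
Mcm6: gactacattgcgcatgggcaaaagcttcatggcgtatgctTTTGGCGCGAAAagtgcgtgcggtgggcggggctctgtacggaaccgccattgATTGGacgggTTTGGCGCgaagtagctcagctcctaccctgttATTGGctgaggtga
Cdk1: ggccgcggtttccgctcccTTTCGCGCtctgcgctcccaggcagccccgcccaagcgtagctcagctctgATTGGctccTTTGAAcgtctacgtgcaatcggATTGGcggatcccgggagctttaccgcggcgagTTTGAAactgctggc
Cdc20: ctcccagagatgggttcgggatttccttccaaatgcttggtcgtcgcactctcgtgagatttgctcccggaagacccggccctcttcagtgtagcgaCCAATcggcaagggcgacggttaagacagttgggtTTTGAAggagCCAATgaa
Top2a: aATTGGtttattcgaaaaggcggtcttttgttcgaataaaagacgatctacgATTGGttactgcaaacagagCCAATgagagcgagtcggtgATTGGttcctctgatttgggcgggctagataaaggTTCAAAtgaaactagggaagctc
Mki67: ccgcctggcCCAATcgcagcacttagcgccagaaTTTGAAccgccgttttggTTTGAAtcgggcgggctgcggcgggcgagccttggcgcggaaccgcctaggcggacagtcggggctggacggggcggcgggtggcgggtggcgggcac
In Mcm6 the run of capitals nearest the 5′ end is a pair of E2F matches that overlap, and a further E2F match lies closer to the start. Cdk1, Cdc20 and Top2a share a layout in which a CHR element lies close to the start, with its leftmost base 15, 18 and 23 bases before it, and at least 1 CCAAT box lies upstream of it. Cdc20 has a further CCAAT box between that element and the start. Mki67 holds its nearest CHR element farther away, at 98 bases before the start. The 4 mitosis genes shown all hold a CHR match in these 150 bases and do not stand for the subset. Kif11 also holds a CHR match there. The other mitosis genes with a window, namely Aurka, Birc5, Bub1, Bub1b, Ccnb1, Ccnb2, Cdc25b, Cenpe, Nusap1 and Plk1, hold none there. For Aurka, Bub1b and Plk1 the only CHR match counted above lies after the start. Birc5 and Nusap1 hold none of the 3 motifs in their windows.

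**Figure D1:**
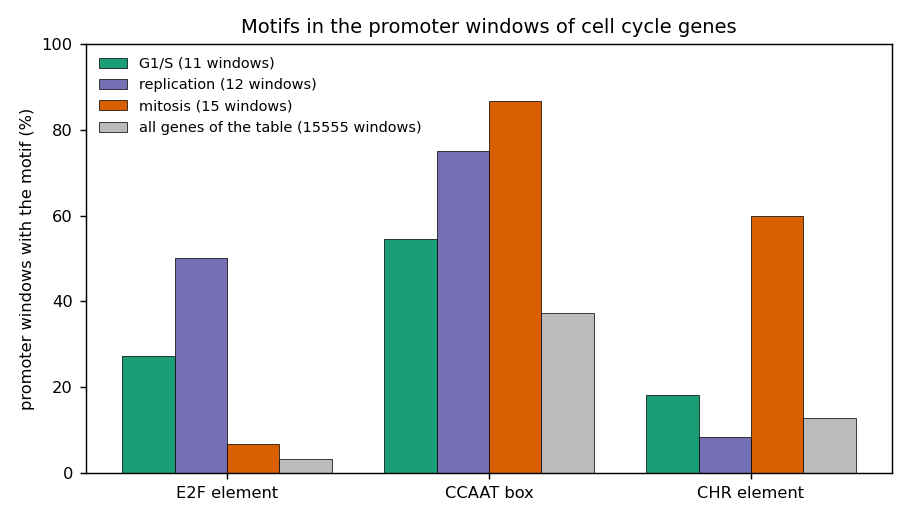
Share of promoter windows (%) that hold each motif, for the 3 subsets and for all genes of the table. The E2F element is most frequent in the replication subset (50%) and the CHR element in the mitosis subset (60%), with all genes at 3.34% and 12.7%.

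Levels differed by subset, here as CPM per kilobase of exon, first averaged over the 16 livers and so over knockouts and controls alike. The median was 1.20 for G1/S genes, 1.12 for replication genes and 0.392 for mitosis genes, against 1.37 for all genes with an annotated length. The order within a subset depended on the group. In the G1/S subset Cdk4, E2f8 and Ccnd1 held the highest 3 mean levels in every group. In METTL3 flox/flox livers they were at 8.60, 4.88 and 2.47 CPM per kilobase, whereas in METTL3 knockouts Ccnd1 was first at 12.5, before Cdk4 at 6.22 and E2f8 at 3.15. In the replication subset Pcna was first in every group, with means of 12.0 to 15.8 CPM per kilobase. In the mitosis subset Birc5, a subunit of the chromosomal passenger complex, was first in METTL3 flox/flox livers at 0.880 ± 0.394 CPM per kilobase (SD, n = 4) and in both RPN11 groups. In METTL3 knockouts Ccnb2 (1.66 ± 0.923) and Mki67 (1.54 ± 1.31) had the highest means, within each other's spread. The mean level was under 1 CPM for 12 of the 44 genes, among them 8 of the 19 mitosis genes, so that single livers often held few counts of them. Tyms, which encodes thymidylate synthase, had between 0 and 20 counts in every liver and was tested in none of the comparisons.

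The mean summed level of all 3 subsets was highest in METTL3 knockout livers. Summed over the subset in CPM of plain library totals, G1/S genes were at 103 ± 12.2 in METTL3 flox/flox livers and at 182 ± 49.8 in METTL3 knockouts (mean ± SD, n = 4). Replication genes were at 90.1 ± 6.35 and 159 ± 49.3, and mitosis genes at 16.6 ± 5.06 and 86.0 ± 70.4. The METTL3 knockouts were far apart from each other in mitosis genes, with summed levels of 25.2, 87.1, 47.4 and 184 CPM in knockouts 1 to 4. Knockout 1 was thus close to the highest flox/flox liver (21.7 CPM) and knockout 4 far above it. In the RPN11 line the summed mitosis level was 25.5, 16.9, 32.8 and 14.9 CPM in flox/flox livers 1 to 4 and 34.8, 30.6, 41.3 and 59.0 CPM in the livers labelled knockout, which overlap in 1 pair. G1/S genes of that line were at 111 ± 9.53 CPM in flox/flox livers and 119 ± 14.7 CPM in labelled knockouts, and replication genes at 98.5 ± 25.0 and 111 ± 9.90 CPM. With TMM-scaled library sizes the G1/S direction turned, at 123 ± 8.54 CPM in flox/flox livers and 118 ± 2.43 CPM in labelled knockouts. Sums were not tested. Ccnd1 made up much of the G1/S sum, which without it was 108 CPM in METTL3 knockouts. The 103 CPM given above for METTL3 flox/flox livers includes Ccnd1. With TMM-scaled sizes the G1/S sum was 113 ± 14.6 CPM in METTL3 flox/flox livers and 147 ± 20.4 CPM in METTL3 knockouts. Ccnd1 alone was at 11.6 and 58.9 CPM on that scale, a larger rise than that of the whole sum. Of the 12 G1/S genes tested in the METTL3 line 6 had a positive and 6 a negative log2 fold change. The higher G1/S sum thus does not stand for the subset as a whole.

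**Figure D2:**
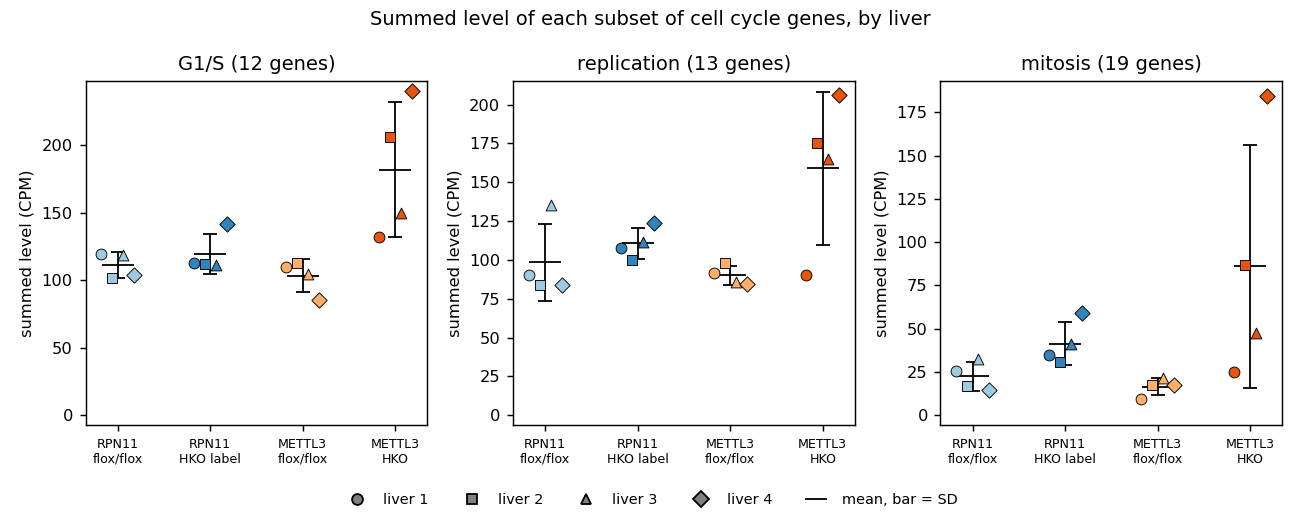
Summed level (CPM of plain library totals) of the G1/S, replication and mitosis genes in each of the 16 livers, with mean and SD per group and a marker shape per liver number. METTL3 knockouts reach 184 CPM in mitosis genes in liver 4 and only 25.2 CPM in liver 1.

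Loss of Mettl3 went with a higher level of many cell cycle genes. Of the 44 genes, 42 could be tested in the METTL3 line, and by edgeR's quasi-likelihood test (Benjamini-Hochberg adjusted p under 0.05 over all tested genes) 14 rose, 3 fell and 25 did not pass. Among all 12450 tested genes 15.2% were called higher and 15.3% lower. With plain library totals in place of TMM (edgeR's trimmed-mean scaling) 22 members rose and none fell, against 32.7% of all tested genes called higher and 6.34% called lower in that fit. Relative to plain totals, TMM shifted the median log2 fold change of all genes by -0.42 in this line and by -0.15 in the RPN11 line. The median log2 fold change was 1.49 over the tested members and 0.04 over all tested genes. By subset, 8 of 18 tested mitosis genes rose and none fell (edgeR), with no mitosis gene called lower by DESeq2 or voom either, and a median of 2.02. An unadjusted p under 0.05 was found for 12 of the 18 and for 42.8% of all tested genes. In the replication subset 3 rose and 1 fell of 12 with a median of 0.76, and in the G1/S subset 3 rose and 2 fell of 12 with a median of 0.22. Livers of the 2 groups did not overlap for 14 members that were higher and 5 that were lower in all 4 knockouts, against 15.5% and 16% of all tested genes. Levels below are CPM over library sizes scaled with TMM over all 16 livers, given for livers 1 to 4 of a group in order.

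**Figure D3:**
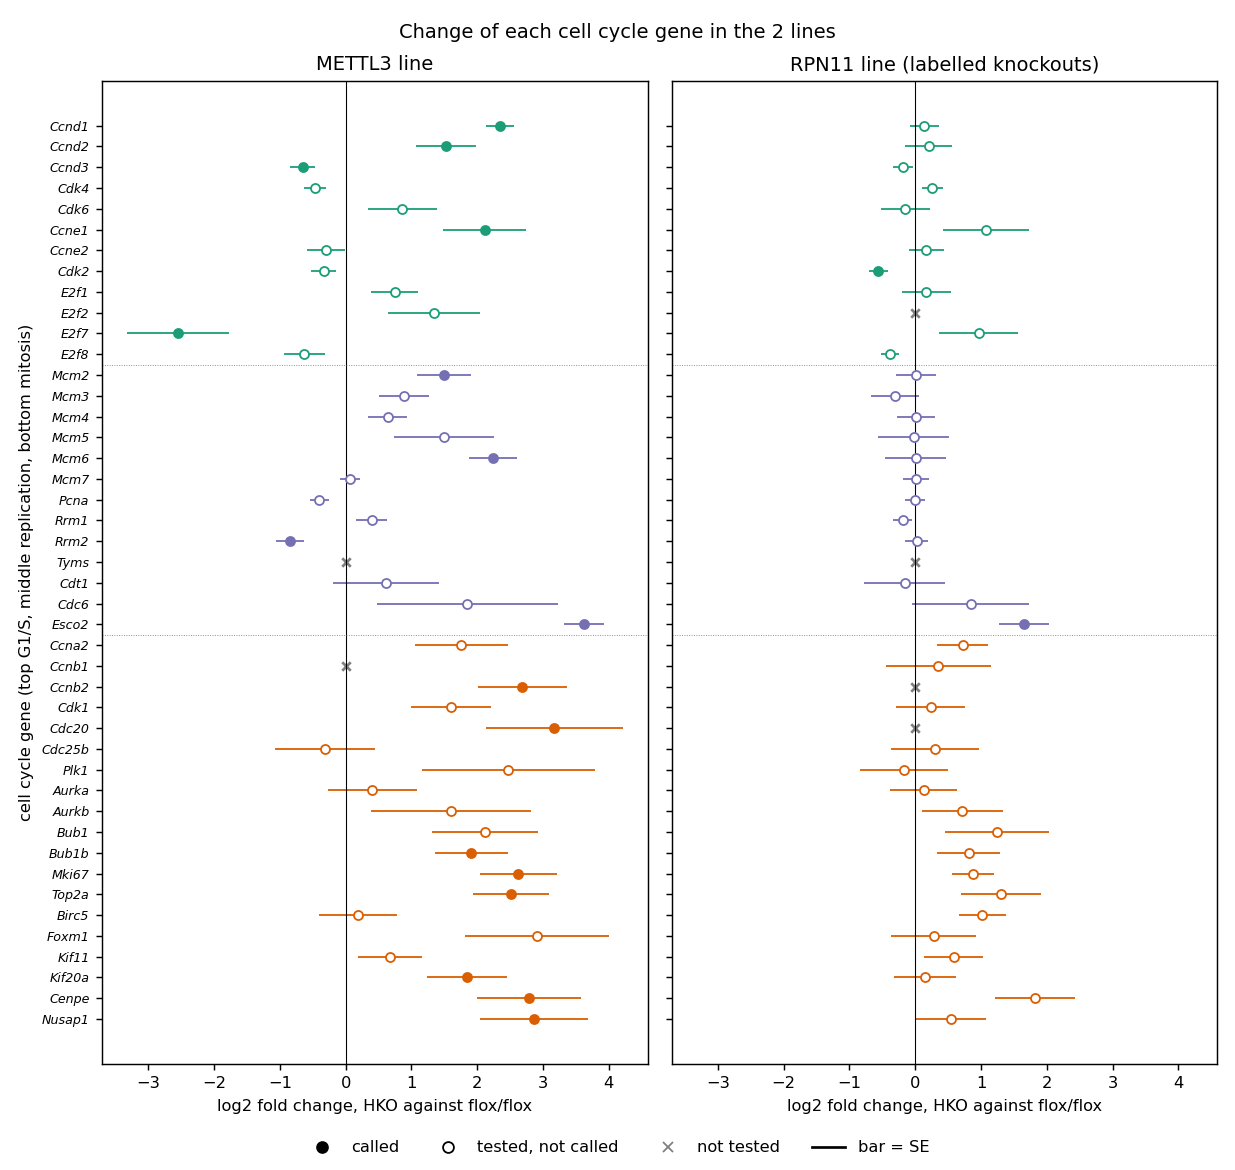
Log2 fold change (knockout against flox/flox, bar = SE) of each cell cycle gene in the METTL3 line and in the RPN11 line, with filled points for called genes and crosses for genes not tested. In the METTL3 line 17 of 18 tested mitosis points lie above 0 and 8 of them are called, while G1/S genes lie on both sides of 0.

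Among the D-type cyclins, which start the G1/S step, Ccnd1 and Ccnd2 rose and Ccnd3 fell in METTL3 knockouts. Ccnd1 (chr7:144929931-144939925, mm10) was at 13.6, 11.7, 10.4 and 10.8 CPM in METTL3 flox/flox livers and at 52.8, 75.0, 37.4 and 70.6 CPM in the knockouts. Every knockout was above every flox/flox liver, and the fitted log2 fold change was 2.35 ± 0.22 (SE), or 5.08-fold (edgeR adjusted p = 0.00014). About 23.4% of the exon bases of Ccnd1 are shared with LTO1 (Oraov1 in the table) on the opposite strand, and Oraov1 itself had a log2 fold change of -0.51 (edgeR adjusted p = 0.0418). Ccnd2 was at 6.20, 1.01, 5.01 and 6.96 CPM in flox/flox livers and at 9.89, 14.5, 15.8 and 14.8 CPM in knockouts, which do not overlap (log2 fold change 1.53 ± 0.46, edgeR adjusted p = 0.0297). Ccnd3 was at 14.5, 16.2, 20.4 and 16.1 CPM and at 13.4, 9.79, 11.3 and 8.26 CPM, again without overlap but in the other direction (log2 fold change -0.65 ± 0.19, edgeR adjusted p = 0.0232). For each gene whose groups do not overlap the exact two-sided permutation p was 0.0286, the smallest that 4 against 4 livers can give.

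None of the kinases that pair with these cyclins passed the test. Cdk4 was at 22.7, 35.3, 30.5 and 23.3 CPM in METTL3 flox/flox livers and at 21.4, 21.4, 18.2 and 19.8 CPM in knockouts, with a log2 fold change of -0.47 ± 0.17 that did not pass (edgeR adjusted p = 0.0529), although the groups do not overlap. Cdk4 shares 19.7% of its exon bases with Tspan31, a gene on the opposite strand with mean levels of 272 CPM in METTL3 flox/flox livers and 143 CPM in METTL3 knockouts, whose log2 fold change was -0.93 (edgeR adjusted p = 0.00181). The sources used here do not state whether opposite-strand reads were counted. Cdk6 had a log2 fold change of 0.86 ± 0.52 and Cdk2 one of -0.33 ± 0.19, and neither passed (edgeR adjusted p = 0.229 and 0.202). Of the E-type cyclins, which activate CDK2, Ccne1 rose from 0.312, 0.506, 0.616 and 0.163 CPM to 1.15, 1.68, 1.69 and 2.41 CPM (log2 fold change 2.11 ± 0.64, edgeR adjusted p = 0.0268). Its flox/flox values rest on 4 to 14 counts per liver. Ccne2 had a log2 fold change of -0.30 ± 0.28 (edgeR adjusted p = 0.442). Ccne2 shares 17.4% of its exon bases with Ints8 on the opposite strand, at 36.3 CPM in METTL3 flox/flox livers and 32.7 CPM in knockouts.

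Of the 4 E2F factors in the set, the repressive E2f7 passed the test. E2f1 was at 2.14, 1.52, 2.24 and 1.67 CPM in flox/flox livers and at 2.69, 3.53, 3.29 and 3.14 CPM in METTL3 knockouts, which do not overlap, but its log2 fold change of 0.74 ± 0.35 did not pass (edgeR adjusted p = 0.128). E2f2 had a log2 fold change of 1.34 ± 0.70 (edgeR adjusted p = 0.165), with 8 to 69 counts per knockout liver. E2f7 fell from 1.01, 0.622, 2.64 and 1.18 CPM to 0.0770, 0.313, 0.178 and 0.344 CPM, the latter from 2 to 11 counts per liver (log2 fold change -2.55 ± 0.78, 5.85-fold lower, edgeR adjusted p = 0.0277). All 4 knockouts were below all flox/flox livers. E2f8 was at 41.2, 30.5, 22.4 and 12.1 CPM and at 16.1, 16.5, 14.6 and 21.4 CPM, so that the groups overlap and the difference did not pass (log2 fold change -0.63 ± 0.31, edgeR adjusted p = 0.151). The spread of E2f8 within flox/flox livers was wider than within knockouts.

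In the replication subset the largest change was that of Esco2, an acetyltransferase that establishes cohesion between sister chromatids during S phase. Esco2 (chr14:65819038-65833994, mm10) was at 0.975, 1.28, 1.63 and 1.10 CPM in METTL3 flox/flox livers and at 19.0, 20.4, 11.9 and 10.5 CPM in knockouts. It was high in all 4 knockouts, including knockout 1, with a log2 fold change of 3.63 ± 0.30, or 12.4-fold (edgeR adjusted p = 6.24e-05). Mcm6, which carries 3 of the E2F matches shown above, rose from 2.46, 3.11, 5.10 and 2.81 CPM to 6.51, 17.0, 20.9 and 19.0 CPM (log2 fold change 2.24 ± 0.37, edgeR adjusted p = 0.00177). Mcm2 rose from 2.61, 2.06, 2.90 and 2.56 CPM to 2.19, 7.66, 9.58 and 9.07 CPM (log2 fold change 1.5 ± 0.41, edgeR adjusted p = 0.018). For Mcm2 knockout 1 lay among the flox/flox livers and the other 3 knockouts above them, and the exact permutation p was 0.114.

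The other helicase subunits did not pass. Log2 fold changes were 0.88 ± 0.38 for Mcm3, 0.64 ± 0.30 for Mcm4, 1.49 ± 0.76 for Mcm5 and 0.07 ± 0.15 for Mcm7 (edgeR adjusted p = 0.097, 0.12, 0.155 and 0.767). Mcm7 was level in all livers of the line, at 14.5, 15.0, 12.1 and 14.0 CPM in flox/flox livers and 14.3, 14.4, 14.1 and 15.3 CPM in knockouts. In Mcm3, Mcm5 and Cdc6, the last an origin-loading factor, knockout 1 was within the flox/flox range while knockouts 2, 3 and 4 were above it. The loading factors Cdt1 and Cdc6 had log2 fold changes of 0.61 ± 0.80 and 1.85 ± 1.37 (edgeR adjusted p = 0.59 and 0.323).

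Among the genes of deoxynucleotide supply and the clamp, Rrm2 was called. Rrm2, the small subunit of ribonucleotide reductase, fell from 18.6, 14.6, 14.9 and 14.8 CPM in METTL3 flox/flox livers to 5.85, 8.88, 9.49 and 10.8 CPM in knockouts (log2 fold change -0.84 ± 0.21, 1.79-fold lower, edgeR adjusted p = 0.0122). All 4 knockouts were below all flox/flox livers. Pcna was at 40.1, 39.8, 38.3 and 33.5 CPM and at 22.6, 32.0, 31.2 and 29.0 CPM, and the groups do not overlap, but its log2 fold change of -0.40 ± 0.14 did not pass (edgeR adjusted p = 0.0537). Rrm1, the large reductase subunit, had a log2 fold change of 0.40 ± 0.24 (edgeR adjusted p = 0.226). Each of the 3 members that fell in METTL3 knockouts, Ccnd3, E2f7 and Rrm2, lost its call with plain library totals in place of TMM, with log2 fold changes of -0.26 and -0.38 for Ccnd3 and Rrm2 and -2.07 for E2f7 (edgeR adjusted p = 0.269, 0.294 and 0.0607).

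The 8 mitosis genes that rose in METTL3 knockouts did so with a wide spread between livers. Mki67, which encodes the proliferation marker Ki-67, was at 2.03, 2.61, 3.83 and 1.63 CPM in flox/flox livers and at 5.62, 13.7, 8.01 and 34.5 CPM in knockouts (log2 fold change 2.63 ± 0.58, 6.17-fold, edgeR adjusted p = 0.00965). Top2a, the topoisomerase that untangles sister chromatids, was at 1.21, 0.778, 2.33 and 1.59 CPM and at 5.0, 5.84, 3.41 and 19.2 CPM (log2 fold change 2.51 ± 0.57, edgeR adjusted p = 0.00843). In both genes all 4 knockouts were above all flox/flox livers, and knockout 4 was the highest by far. Ccnb2, a B-type cyclin partner of CDK1, was at 0.351, 0.233, 0.176 and 0.814 CPM and at 1.15, 2.22, 2.28 and 4.52 CPM, also without overlap (log2 fold change 2.69 ± 0.67, edgeR adjusted p = 0.0119). Bub1b, a kinase-like protein of the spindle checkpoint, was at 0.312, 1.44, 0.924 and 1.06 CPM and at 2.35, 4.24, 1.84 and 5.63 CPM (log2 fold change 1.91 ± 0.56, edgeR adjusted p = 0.023). Cenpe, a kinetochore motor, was at 0.0780, 0.389, 0.572 and 0.814 CPM and at 1.12, 4.64, 1.07 and 5.98 CPM (log2 fold change 2.79 ± 0.78, edgeR adjusted p = 0.0199). The groups of Bub1b and Cenpe did not overlap either.

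For 3 further mitosis genes that rose, knockout 1 lay among the flox/flox livers. Cdc20, an activator of the anaphase-promoting complex, was at 0, 0.0389, 0.396 and 0.488 CPM in METTL3 flox/flox livers, from 0 to 12 counts, and at 0.462, 2.19, 1.57 and 4.13 CPM in knockouts (log2 fold change 3.17 ± 1.04, edgeR adjusted p = 0.0383). Nusap1, a spindle microtubule protein, was at 0.195, 0.506, 0.660 and 0.122 CPM and at 0.385, 2.99, 2.02 and 5.42 CPM (log2 fold change 2.86 ± 0.82, edgeR adjusted p = 0.0217). Kif20a, a kinesin of cytokinesis, was at 0.819, 1.52, 1.32 and 0.285 CPM and at 1.42, 5.12, 2.19 and 5.38 CPM (log2 fold change 1.84 ± 0.61, edgeR adjusted p = 0.0384). The exact permutation p was 0.0571 for Cdc20, 0.0857 for Nusap1 and 0.0571 for Kif20a. Kif20a shares 29.3% of its exon bases with Cdc23 on the opposite strand, whose log2 fold change was -0.21 (edgeR adjusted p = 0.369).

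The mitotic kinases Cdk1, Bub1, Plk1, Aurka and Aurkb were not called, nor were Foxm1, Ccna2 and Cdc25b. Cdk1, the kinase that drives entry into mitosis, was at 1.09, 0.195, 1.23 and 1.30 CPM in METTL3 flox/flox livers and at 1.54, 4.44, 2.02 and 3.61 CPM in knockouts, which do not overlap (log2 fold change 1.61 ± 0.61, edgeR adjusted p = 0.0646). Foxm1, the transcription factor of G2 and M genes, had 0, 15, 6 and 0 counts in flox/flox livers and 30, 52, 29 and 69 counts in knockouts, without overlap (log2 fold change 2.90 ± 1.09, edgeR adjusted p = 0.0635). Bub1, a checkpoint kinase, had a log2 fold change of 2.12 ± 0.80 (edgeR adjusted p = 0.0648), also without overlap. Ccnb1, the other B-type cyclin of the set, did not pass the filter on low counts, with 0, 0, 6 and 0 counts in flox/flox livers and 1, 75, 57 and 78 counts in knockouts (exact permutation p = 0.0571). Ccna2, the A-type cyclin, was at 0.351, 0.467, 3.12 and 2.20 CPM and at 2.08, 6.29, 3.50 and 8.77 CPM, with overlap (log2 fold change 1.76 ± 0.70, edgeR adjusted p = 0.0808). Ccna2 shares 12.5% of its exon bases with Exosc9 on the opposite strand, at 15.2 CPM in METTL3 flox/flox livers and 20.9 CPM in knockouts. Plk1, Aurkb, Kif11, Aurka, Birc5 and Cdc25b had log2 fold changes of 2.48, 1.60, 0.67, 0.41, 0.19 and -0.31 with overlapping groups (edgeR adjusted p between 0.173 and 0.834). Cdc25b, a phosphatase that activates CDK1, was the only tested mitosis gene with a negative value.

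**Figure D4:**
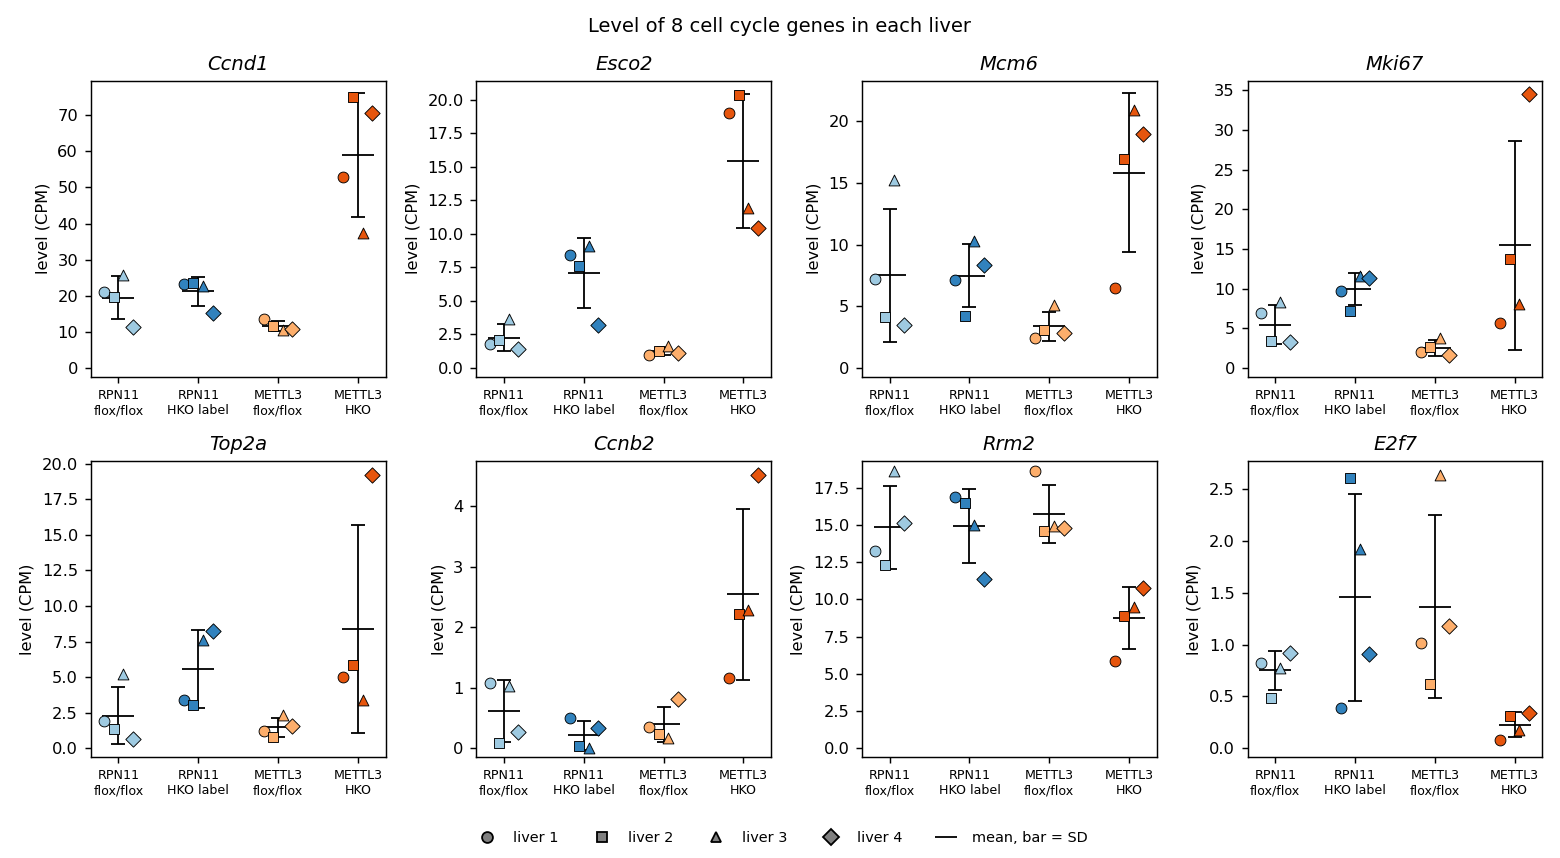
Level (CPM over TMM-scaled library sizes) of 8 cell cycle genes in each liver, with mean and SD per group. Ccnd1 and Esco2 are high in all 4 METTL3 knockouts, Mki67 and Top2a are highest in knockout 4 (34.5 and 19.2 CPM), and Rrm2 and E2f7 are lower in all 4.

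The METTL3 knockouts took different positions, and so did markers of other liver cells. Of the 19 mitosis genes, knockout 4 was above all flox/flox livers for 19, knockout 2 for 16, knockout 3 for 13 and knockout 1 for 8, against 36.3%, 33.3%, 34.8% and 30.4% of all tested genes in the same order. Knockout 1 was the lowest of its group for 14 mitosis and 10 of 13 replication genes, but for 5 of 12 G1/S genes. Markers of macrophages and Kupffer cells summed to 477, 873, 785 and 1712 CPM of plain totals in knockouts 1 to 4, against 171 to 236 CPM in METTL3 flox/flox livers. The knockouts thus stood in the same order as for mitosis genes, which was not particular to these markers. Lymphocyte markers had that order too (33.6, 56.7, 51.9 and 87.3 CPM), while the other marker lists did not. On plain totals the further pathway lists given below had it, except the pocket proteins and other E2F and DREAM genes. The TMM factors of knockouts 1 to 4 also had it (0.966, 1.26, 1.22 and 1.46). All 10 tested markers of that list were called higher in the METTL3 knockouts, while Csf1r was at 0 to 0.582 CPM in every liver. Stellate cell markers summed to 527 to 869 CPM against 231 to 310 CPM with 8 of 9 called higher, and cholangiocyte markers to 201 to 795 CPM against 59.0 to 135 CPM with 3 of 6 called higher. Lymphocyte markers were at 33.6 to 87.3 CPM against 12.4 to 21.8 CPM with 1 of 10 called higher, neutrophil markers at 4.16 to 38.3 CPM against 0.896 to 2.31 CPM with 2 of 3 called higher, and of 9 endothelial markers 4 were called higher and 1 lower. Hepatocyte markers were at 81346 to 137002 CPM against 130716 to 145836 CPM, with 6 of 10 called lower, and erythroid markers had 3 of 7 called lower. The part of these cells in the cell cycle results was not tested, and in whole liver a change in the number of cells of a type and a change in RNA per cell cannot be told apart.

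**Figure D5:**
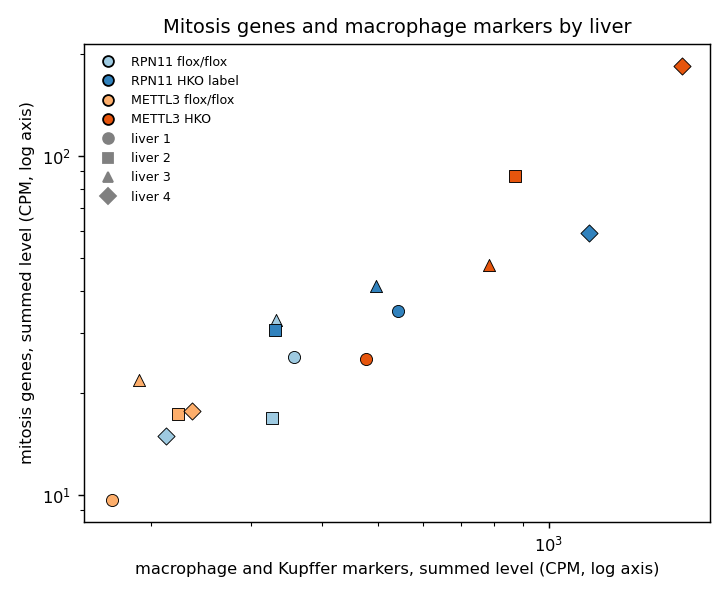
Summed level of the 19 mitosis genes against the summed level of 11 macrophage and Kupffer markers in each liver (both CPM of plain totals, log axes). METTL3 knockouts run from 25.2 and 477 CPM in liver 1 to 184 and 1712 CPM in liver 4.

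The number of called members depended on single METTL3 livers. Calls over all genes did so too, with 2737 to 4932 when 1 liver was left out, against 3799 with all livers. Without knockout 2 or without knockout 4, 7 members were called higher, without flox/flox 1 8 were, and without knockout 1 21 were. Without flox/flox 3 or knockout 2, 1 member was called lower, and without flox/flox 4 6 were. The calls of Ccnd1, Esco2, Mcm6, Ccnb2, Mki67 and Top2a held in all 16 alternatives, with adjusted p of at most 0.00136, 0.000964, 0.00974, 0.0427, 0.0359 and 0.0327. Without knockout 4, the log2 fold change of Mki67 was 1.85 and that of Top2a 1.68. Ccnd2 (adjusted p up to 0.0741), Ccne1 (0.0761), Bub1b (0.0657), Cenpe (0.062), Nusap1 (0.0725), Kif20a (0.114) and Cdc20 (0.102) each lost their call without knockout 2 and without knockout 4. Without knockout 3 the calls of Ccnd2, Ccne1 and Cdc20 ended, without flox/flox 1 those of all 7 except Cenpe, without flox/flox 2 those of Cenpe and Cdc20, without flox/flox 3 those of Ccnd2, Bub1b, Kif20a and Cdc20, and without flox/flox 4 those of Ccne1, Kif20a and Nusap1. Mcm2 (up to 0.0586) lost it without flox/flox 2 or knockout 3, Ccnd3 (up to 0.269) without flox/flox 3, knockout 2 or knockout 4, and E2f7 (up to 0.124) without flox/flox 3 or knockout 1, 2 or 3. A replicate block ended the calls of Ccne1, Kif20a and E2f7 (adjusted p = 0.0566, 0.0657 and 0.0654). These p-values are edgeR's or those of the alternative tool.

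In the RPN11 line 40 members could be tested, and 1 rose and 1 fell by edgeR. Of all 12108 tested genes 1.99% were called higher and 2.82% lower, or 4.81% in either direction, so both counts are near the background. Esco2 was at 1.82, 2.12, 3.67 and 1.38 CPM in RPN11 flox/flox livers and at 8.41, 7.63, 9.05 and 3.21 CPM in livers labelled knockout, where labelled knockout 4 is below the highest flox/flox liver (log2 fold change 1.66 ± 0.38, 3.15-fold, edgeR adjusted p = 0.0347, exact permutation p = 0.0571). Cdk2, the kinase partner of E-type cyclins, was at 15.6, 12.8, 14.9 and 16.4 CPM and at 10.03, 10.5, 9.23 and 10.1 CPM, without overlap (log2 fold change -0.56 ± 0.14, 1.48-fold lower, edgeR adjusted p = 0.0468). Livers of the 2 groups did not overlap for Cenpe on the higher side and for Cdk2 and E2f8 on the lower side, against 7.61% and 10.1% of all tested genes. The call of Esco2 ended without any 1 of the livers other than labelled knockout 4 (adjusted p up to 0.118), and that of Cdk2 ended in 11 of 16 alternatives (up to 0.137), among them each liver left out except labelled knockout 4.

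Mitosis genes of the RPN11 line had positive log2 fold changes in 16 of 17 tested, with a median of 0.58 against 0.03 over all tested genes, but none was called by edgeR. At an unadjusted p under 0.05 there were 3 of 17, against 25.04% of all tested genes. DESeq2 called 1 (Cenpe) and voom called 1 (Mki67), while they called 11.01% and 12.2% of all tested genes. Cenpe was at 0.867, 0.360, 1.21 and 0.414 CPM in flox/flox livers and at 1.58, 1.89, 1.22 and 5.14 CPM in labelled knockouts (log2 fold change 1.82 ± 0.61, edgeR adjusted p = 0.0999). Mki67 was at 6.90, 3.44, 8.29 and 3.27 CPM and at 9.72, 7.17, 11.5 and 11.3 CPM (log2 fold change 0.88 ± 0.32, edgeR adjusted p = 0.121), and Birc5 at 1.45, 2.56, 2.03 and 2.72 CPM and at 2.39, 4.49, 4.94 and 5.68 CPM (log2 fold change 1.02 ± 0.36, edgeR adjusted p = 0.111). In both genes 1 labelled knockout lay within the flox/flox range and the other 3 above it. Top2a was at 1.94, 1.36, 5.23 and 0.645 CPM and at 3.40, 3.06, 7.61 and 8.23 CPM (log2 fold change 1.30 ± 0.61, edgeR adjusted p = 0.212). Macrophage and Kupffer markers were at 330 to 1177 CPM in the labelled knockouts and at 213 to 357 CPM in flox/flox livers with 1 of 10 called higher. Lymphocyte markers were at 30.6 to 70.2 CPM against 15.8 to 20.5 CPM with 1 of 3 called higher (Ptprc), and cholangiocyte markers at 88.0 to 720 CPM against 56.2 to 76.7 CPM with none of 5 called by edgeR and 1 at an unadjusted p under 0.05. Neutrophil markers were at 2.01 to 37.1 CPM against 1.13 to 1.66 CPM with none of 3 called by edgeR and 2 at an unadjusted p under 0.05. Labelled knockout 4 was the highest in all 4 of these lists, as it was in brain genes, and the part of other cells in the mitosis values was not tested.

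Of the G1/S and replication genes of the RPN11 line, those other than Cdk2 and Esco2 were not called. Ccnd1 was at 21.0, 19.5, 25.7 and 11.5 CPM in flox/flox livers and at 23.2, 23.6, 22.7 and 15.3 CPM in labelled knockouts (log2 fold change 0.14 ± 0.22, edgeR adjusted p = 0.741). Mcm6 was at 7.23, 4.16, 15.2 and 3.50 CPM and at 7.14, 4.19, 10.3 and 8.31 CPM, with a log2 fold change of 0.01 ± 0.47, whose sign changed between settings. Over the G1/S subset the median log2 fold change was 0.17 and over the replication subset 0.01. Pcna was at 37.5 ± 8.70 CPM and 37.0 ± 1.98 CPM (SD, n = 4), Rrm2 at 14.8 ± 2.78 and 14.9 ± 2.5 CPM, and Mcm7 at 12.8 ± 1.61 and 12.7 ± 3.33 CPM. E2f8 was at 33.8, 27.9, 27.8 and 25.9 CPM and at 24.7, 19.2, 25.0 and 19.0 CPM, without overlap but not called (log2 fold change -0.38 ± 0.14, edgeR adjusted p = 0.118). E2f2, Tyms, Ccnb2 and Cdc20 were not tested in this line because of low counts, with means of 0.681 CPM or less in both groups.

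The effects of the knockouts were compared in a single fit of all 16 livers, as the RPN11 effect minus the METTL3 effect. Of 43 tested members 3 were called higher and 4 lower by edgeR, against 6.96% and 6.15% of all 13118 tested genes. Lower values, that is a larger rise in the METTL3 line, were found for Ccnd1 (log2 difference -2.21 ± 0.33, edgeR adjusted p = 0.000649), Esco2 (-1.98 ± 0.49, 0.0143), Mcm6 (-2.25 ± 0.64, 0.0305) and Ccnb2 (-4.15 ± 1.35, 0.0491). Higher values were found for E2f7 (3.50 ± 0.98, edgeR adjusted p = 0.0256), Rrm2 (0.85 ± 0.27, 0.0459) and Cdk4 (0.71 ± 0.23, 0.0494). Ccnb2 was at 1.07, 0.0801, 1.04 and 0.276 CPM in RPN11 flox/flox livers and at 0.502, 0.0378, 0 and 0.329 CPM in labelled knockouts, so its value rests on few counts. E2f7 was at 0.826, 0.480, 0.778 and 0.921 CPM and at 0.386, 2.60, 1.92 and 0.905 CPM in those groups, with overlap, and Cdk4 at 25.0, 20.1, 22.0 and 25.7 CPM and at 23.4, 29.2, 22.6 and 34.2 CPM, also with overlap. The differences of Ccnd1 and Esco2 held in all 24 alternatives, with adjusted p of at most 0.00241 and 0.0401. Those of E2f7, Mcm6, Ccnb2, Rrm2 and Cdk4 ended in 7, 11, 14, 16 and 19 of them, with adjusted p up to 0.104, 0.066, 0.114, 0.305 and 0.298. All 5 ended when METTL3 knockout 3, RPN11 flox/flox 1 or RPN11 labelled knockout 2 was left out.

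Between the flox/flox livers of the 2 lines no member was called by edgeR among 35 tested, against 0.319% of all 11905 tested genes (0.244% higher and 0.0756% lower), with 4 members at an unadjusted p under 0.05, against 16.5% of all tested genes. DESeq2 called 1 member and voom none, while they called 3.46% and 1.01% of all tested genes. No member was without overlap between the groups in either direction, against 5.1% and 4.02% of all tested genes. Ccnd1 was at 19.4 ± 5.92 CPM in RPN11 and 11.6 ± 1.44 CPM in METTL3 flox/flox livers (log2 fold change 0.73 ± 0.21, edgeR adjusted p = 0.107), and without RPN11 flox/flox 4 it was called. Mki67 was at 5.48 ± 2.51 and 2.52 ± 0.958 CPM (1.11 ± 0.36, edgeR adjusted p = 0.146). Line and cohort cannot be told apart in this comparison, and each knockout was compared with its own line's livers.

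Other genes of the pathway, taken from textbook lists, were called in METTL3 knockouts at shares of 7.14% to 35.7% of a list's tested genes, against 30.5% of all tested genes. Of the 5 lists 1 was above that share. Of 11 tested CDK inhibitors and checkpoint kinases 2 rose, namely Cdkn1a, the p53-induced inhibitor p21 (6.75 ± 3.59 to 38.5 ± 20.5 CPM, log2 fold change 2.52, edgeR adjusted p = 0.0178), and Chek1, a kinase of the replication checkpoint (log2 fold change 2.47, edgeR adjusted p = 0.0492). Of 14 tested pocket proteins and other E2F and DREAM genes 3 rose and 2 fell, with Rbl1 (p107) at log2 fold change 1.73, Mybl1 at 2.56, E2f3 at 0.92 and Lin52, a subunit of the DREAM core, at -0.93 (edgeR adjusted p = 0.00473, 0.015, 0.0105 and 0.00736). Of 32 tested further replication genes 4 rose and 4 fell, among them Uhrf1, which maintains DNA methylation (3.20), the salvage enzyme thymidine kinase Tk1 (-1.76) and the helicase cofactor Gins4 (-0.88), with edgeR adjusted p of 0.0177, 0.00109 and 0.0172. Of 37 tested further mitosis genes 7 rose and 2 fell, with the cytokinesis scaffold Anln at 2.65, the spindle factor Tpx2 at 3.35, cyclin F (Ccnf) at -1.10 and securin (Pttg1) at -1.28 (edgeR adjusted p = 0.00353, 0.00991, 0.00115 and 0.00252). Of 14 subunits and activators of the anaphase-promoting complex 1 fell, Anapc13 (-1.06, edgeR adjusted p = 0.000673). In the RPN11 line 1 of 32 tested further replication genes rose, the replication factor Mcm10 (65.2 ± 4.75 to 114 ± 18.4 CPM, log2 fold change 0.82, edgeR adjusted p = 0.00681). Of 10 tested CDK inhibitors and checkpoint kinases 1 fell, the CDK1-inhibiting kinase Wee1 (10.8 ± 1.46 to 5.49 ± 0.712 CPM, log2 fold change -0.96, edgeR adjusted p = 0.0182). No gene of the other lists was called there, and 4.81% of all tested genes were called in that line. Mcm10 fell in the METTL3 line, from 92.7 ± 23.0 to 20.5 ± 17.8 CPM (log2 fold change -2.19, edgeR adjusted p = 0.022), and the difference between the effects was 2.99 (edgeR adjusted p = 0.00641).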

How the data were processed

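The authors' deposited table holds raw read counts per gene in 16 columns. Per the submitters' processing notes reads were trimmed with cutadapt 1.9.3, aligned with HISAT2 2.0.4 to mm10 and counted with HTSeq 0.9.1. Per the labels' protocols RNA was extracted with TRIzol and depleted of rRNA. The strand setting and annotation used for counting are not stated there. A further 16 deposited columns of normalized values were not used.

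Counts were tested over all genes with edgeR 4.0.16 in R 4.3.3 (filterByExpr, TMM scaling, robust quasi-likelihood test, Benjamini-Hochberg over all tested genes, adjusted p under 0.05). Each line was fitted alone, and the difference between lines was fitted in all 16 livers. Single genes were also tested with exact two-sided permutation tests over livers on log2(CPM + 0.5). Alternatives used DESeq2 1.42.0, limma 3.58.1 (voom), other scalings and filters, a replicate block, and each liver left out. The edgeR fit was tested on simulated data. Plain library totals were added after seeing the data. Exon lengths came from GENCODE M21 (16804 of 16973 genes matched) and promoters from RefSeq. Among all symbols, 31 belong to more than 1 gene. Library totals ran from 15980959 to 29029592 counts, and a count of 0 allows up to 3 counts per library, which covers counting error only.

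Members and lists were chosen with earlier results of these data known. Per-liver values are given for every called member, for the 3 members of each subset with the highest level per kilobase, and for Mki67, Top2a, Cdk1, Ccnb1, Ccnd1 and E2f8, and for other members whose groups do not overlap or that are discussed beside them. From each further pathway list up to 4 called genes with the lowest p are named per comparison, except 1 that is not reported here. E2f6, Sgo1 and Sgo2a were not found by symbol.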

Additional observations from a re-analysis of the deposited data

Results flagged for a closer look

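In 11 of 116 groups of 4 livers 1 liver lay far from the other 3 by Dixon's test, which chance gives in about 1 in 20 groups. In METTL3 flox/flox livers these were Ccnb1 in liver 3 (0.264 CPM, the others at 0) and Rrm2 in liver 1 (18.6 CPM). In METTL3 knockouts it was Top2a in liver 4 (19.2 CPM). In RPN11 flox/flox livers these were Cdc20 in liver 1 (2.15 CPM), and Mcm2 (4.45 CPM), Pcna (50.4 CPM) and the summed replication level (135.7 CPM) in liver 3. In livers labelled RPN11 knockout all were in liver 4, with Ccnd1 lowest (15.3 CPM) and Cenpe (5.14 CPM), Mcm2 (4.12 CPM) and the summed G1/S level (141.2 CPM) highest.

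For 7 members the effects in the lines differed by edgeR's test of the difference itself, as the RPN11 effect minus the METTL3 effect on the log2 scale. The differences were -2.21 for Ccnd1, -2.25 for Mcm6, -1.98 for Esco2, -4.15 for Ccnb2, 0.71 for Cdk4, 0.85 for Rrm2 and 3.50 for E2f7.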

How the results depend on the processing

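Among the METTL3 calls, Ccnd1, Esco2, Mcm6, Ccnb2, Mki67 and Top2a passed under every alternative run. With plain library totals 22 METTL3 members were higher and 0 lower, against 32.7% and 6.34% of all tested genes. Voom and the fit of all 16 livers each gave 5 lower, and voom called 21.5% of all tested genes lower. A 2-fold minimum gave 1 lower, with 1736 calls over all genes in either direction. In the RPN11 line 0 members were lower with plain totals, no filter, the replicate block, the 16-liver fit or a 2-fold minimum. Over all genes these settings gave 884, 350, 376, 343 and 123 calls in that order, against 583 in the main fit. DESeq2 and voom each called 2 members of that line higher, against 4.89% and 5.53% of all tested genes. For the difference between lines, 1 member was higher with plain totals, no filter, voom or a 2-fold minimum, and 0 with a mean of at least 1 CPM or the replicate block. Lower were 7 by DESeq2, 9 by voom and 2 without both replicate 4 knockouts. Over all genes voom gave 3504 calls for the difference and a 2-fold minimum 942, against 1720 in the main fit. DESeq2 called 1 member higher between flox/flox livers, against 2.18% of all tested genes called higher. The cause of these shifts was not tested. Leaving out 1 liver gave 7 to 21 higher and 1 to 6 lower members in the METTL3 line, 0 to 1 and 0 to 1 in the RPN11 line, 0 to 3 and 2 to 9 for the difference, and 0 to 1 and 0 between flox/flox livers. Over all genes it gave 2737 to 4932 calls (3799 with all livers), 59 to 941 (583), 1095 to 2663 (1720) and 1 to 282 (38), in that order.

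The log2 fold change of Mcm6 in the RPN11 line was below 0 with RLE (-0.0028), no filter (-0.018), DESeq2 (-0.0024) and the 16-liver fit (-0.012), and ran from -0.23 to 0.60 with 1 liver left out. That of Ccnd1 there ran from -0.044 (without RPN11 flox/flox 4) to 0.30, and that of Top2a between flox/flox livers from -0.17 to 0.94. Same-numbered livers of the RPN11 line correlated at -0.060 to -0.0056, and 0 of 8 libraries correlated best with their own number. In the METTL3 line these correlations were 0.027 to 0.18, with 6 of 8 libraries best with their own number. Between flox/flox livers they were -0.13 to 0.084, with 2 of 8. Whether equal numbers mark paired METTL3 livers was not tested. With a replicate block 14 METTL3 members were higher and 2 lower (without Ccne1, Kif20a and E2f7, and with Mcm5 and Ccna2). The block gave 1 and 0 in the RPN11 line, and 0 and 3 for the difference. With TMM-scaled sizes the summed G1/S level was 123.4 CPM in RPN11 flox/flox and 118.4 CPM in labelled knockout livers, which turns its direction, and the summed replication level 98.5 CPM in METTL3 flox/flox livers. Without Ccnd1 the G1/S sum was 93.5 and 98.1 CPM in RPN11 flox/flox and labelled knockout livers and 108.2 CPM in METTL3 knockouts, and without Pcna the replication sum was 64.7, 73.4 and 55.4 CPM in RPN11 flox/flox, RPN11 labelled knockout and METTL3 flox/flox livers.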
